A study of Mus musculus with 4 samples.

Results

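The Serpin genes encode a family of protease inhibitors and related proteins that share one fold. They were taken as all genes of the array annotation with a single symbol made of Serpin, a clade letter, a number and any further letters, and every probe set of these genes was read. This gave 39 genes on 53 probe sets, of 18193 named genes and 45101 probe sets in all. By clade, 13 genes belonged to A, 18 to B, 2 each to F and I, and 1 each to C, D, G and H. The rule matched genes of 8 clades, and clade E genes are not analysed here.

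RNA of mouse liver cell lines had been measured on 4 Affymetrix Mouse430_2 GeneChip arrays, 2 of resident liver stem cell (RLSC) lines and 2 of the differentiated hepatocytic line MMH-D3. The RLSC line MetE14/3 was derived from embryonic liver, of a mouse carrying the cyto-Met transgene, at 14 days post coitum, and originated from clone B2. The RLSC line WTE14/1 was derived from embryonic liver of the same age labelled WT; its title gives WTE14/1 and its source name WT E14/3, and the title is used here. Both RLSC lines had been selected for palmate colonies and expanded in medium with fetal bovine serum for about 50 generations before freezing. MMH-D3 was measured on array 1 and array 2, for which the labels give neither the animal of origin nor whether the cultures were separate. MMH lines were established in culture from livers of mice with the cyto-Met transgene, a truncated and active form of the receptor Met, in the publication that the labels cite. All lines are immortal or long-term cultures on collagen I, so they model liver cells only as far as such lines do. Since each RLSC line has 1 array, p-values between RLSC and MMH-D3 rest on the spread between MetE14/3 and WTE14/1 and between 2 MMH-D3 arrays, which may be technical.

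A typical serpin presents an exposed reactive loop to a protease, is cut, and traps the enzyme in an irreversible complex. Clade A, C, D, F and G members are mostly secreted, and in the liver hepatocytes make many of them for the plasma. Clade B members mostly stay inside the cell, where they restrain granzymes, cathepsins and leukocyte elastase, and the mouse holds clusters of recently duplicated clade B genes. Some members inhibit no protease, such as the collagen chaperone Serpinh1 and the epithelial protein Serpinb5.

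The signals were probe set intensities on a linear scale. Array medians were 19.6 and 28.0 in MetE14/3 and WTE14/1 and 16.9 and 23.0 on MMH-D3 arrays 1 and 2. For 24 poly-A control probe sets, the mean on MetE14/3 and MMH-D3 array 1 was divided by that on WTE14/1 and MMH-D3 array 2. The median of these ratios was 10.6 (range 5.75 to 26.1). Each of these array pairs holds 1 array of each group, so differences are also given within pairs. Hepatocyte markers were scarce in RLSC: the summed signal of 9 marker genes ranged from 244 to 561 in RLSC and from 9816 to 15503 in MMH-D3, and albumin (Alb) read 1.70 in MetE14/3, 2.91 in WTE14/1, and 44.7 and 440 in MMH-D3. Of those 9 markers, 3 reached a signal of 100 on an RLSC array and 7 on an MMH-D3 array; Cps1 and Tat did so on none. Mesenchymal markers summed to 15774 to 28431 in RLSC and 14031 to 14255 in MMH-D3, sums made up mostly of vimentin (Vim). Of 7 such markers, 5 reached 100 on an RLSC array and 1 on an MMH-D3 array. Smooth muscle actin (Acta2) read 1638 in MetE14/3 and 8962 in WTE14/1, versus 47.5 and 38.7 for MMH-D3. No haematopoietic, granulocyte, erythroid or endothelial marker reached 100 on any array. Of 3 neural markers, Tubb3 alone did, in WTE14/1, and the 3 summed to 105 to 427 in RLSC and 43.6 to 47.4 in MMH-D3. In such bulk samples, fewer cells of a type and less RNA per cell cannot be told apart.

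Upstream sequences of 4 members are shown as examples of each direction, chosen after their values were seen. Serpinb9 and Serpinb9b are neighbouring paralogs with higher signals in both RLSC lines, Serpinh1 has its highest signal in WTE14/1, and Serpinb5 has low signals in both RLSC lines. Each run is the 250 bases before the annotated start, 5′ to 3′ on the gene's strand, from RefSeq (GRCm38.p6). Capitals mark matches on either strand to 5 motifs: the TATA box TATAAA, the GC box GGGCGG, the AP-1 site TGANTCA, the heat shock element GAANNTTC and the interferon regulatory factor site AANNGAAA. No matches overlap in these 4 windows. The interferon regulatory factor letters replaced a longer form after its matches had been seen; the longer form matched Serpinb9 and not Serpinb9b, so nothing is read from a match in both.
Serpinb9 (chr13:33004291-33004540, plus strand): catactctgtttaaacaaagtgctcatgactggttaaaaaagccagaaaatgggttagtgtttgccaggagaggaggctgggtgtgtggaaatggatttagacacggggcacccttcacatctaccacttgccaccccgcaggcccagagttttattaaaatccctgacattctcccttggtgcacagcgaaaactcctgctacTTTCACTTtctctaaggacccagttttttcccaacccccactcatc
Serpinb9b (chr13:33027164-33027413, plus strand): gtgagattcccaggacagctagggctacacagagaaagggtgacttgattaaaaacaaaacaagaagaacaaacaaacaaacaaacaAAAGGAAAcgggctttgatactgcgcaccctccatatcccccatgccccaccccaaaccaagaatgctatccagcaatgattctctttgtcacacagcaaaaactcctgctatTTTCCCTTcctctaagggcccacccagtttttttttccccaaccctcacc
Serpinb5 (chr1:106860925-106861174, plus strand): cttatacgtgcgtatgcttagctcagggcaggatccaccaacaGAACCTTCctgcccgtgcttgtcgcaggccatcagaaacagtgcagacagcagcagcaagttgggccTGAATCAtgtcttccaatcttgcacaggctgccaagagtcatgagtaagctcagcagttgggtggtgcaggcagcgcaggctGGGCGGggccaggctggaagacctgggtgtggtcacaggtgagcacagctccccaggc
Serpinh1 (chr7:99353240-99353489, minus strand): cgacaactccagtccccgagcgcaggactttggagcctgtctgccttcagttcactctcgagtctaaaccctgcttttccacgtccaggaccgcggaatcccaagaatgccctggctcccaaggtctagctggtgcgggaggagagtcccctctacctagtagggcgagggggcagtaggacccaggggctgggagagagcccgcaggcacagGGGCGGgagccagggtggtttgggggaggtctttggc
Counted from the annotated start, Serpinb9 held 1 match to the interferon regulatory factor letters, on the reverse strand at -46 to -39, and Serpinb9b held 2, at -163 to -156 and, on the reverse strand, at -50 to -43. Serpinb5 held a GC box at -58, an AP-1 match at -140 and a heat shock match at -207, and Serpinh1 a GC box at -37. Among 32851 promoter windows of this length, 32.7% held the GC box, 21.3% the interferon regulatory factor letters, 12.4% the TATA box, 6.75% the AP-1 letters and 6.69% the heat shock letters. Of the 13 tested Serpin genes with a window, 6 held the interferon regulatory factor letters, 5 the GC box, 4 AP-1, 1 the heat shock letters and 1 the TATA box. Serpinb9 and Serpinb9b windows were 58.1% identical over 272 alignment columns, and 52.0% for Serpinb9 and Serpinb5. These matches describe letters, not bound sites.

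The first comparison asked how Serpin genes differ between RLSC lines and MMH-D3. The granzyme inhibitors Serpinb9 and Serpinb9b and the collagen chaperone Serpinh1 stood higher in both RLSC lines. Another granzyme inhibitor, Serpinb6b, stood higher in MetE14/3 and lower in WTE14/1. Serpinb5, Serpinb6c and Serpinb2 stood lower in both. For these genes, Serpinb6b apart, the ratios on the log2(signal + 4) scale ran from 3.87-fold (Serpinh1) to 14.3-fold (Serpinb5). Serpini1 also stood higher and Serpinb6a lower in both lines, by smaller ratios of 2.50-fold and 1.49-fold. A single line could differ by less. For Serpinh1 the log2 difference was 0.79 within the array pair of MetE14/3 and 3.12 within that of WTE14/1. Secreted plasma serpins of clades A, C and F gave low signals in every line, MMH-D3 included. For the test, values entered as log2(signal + 4) after quantile normalization, probe sets whose mean was below the 40th percentile, near a signal of 11.7, were left out, and the probe set of highest mean stood for each gene. Of the 39 Serpin genes, 15 passed this filter, 11 of clade B and 1 each of D, G, H and I. None of the 15 passed limma's test with Benjamini-Hochberg adjustment over 12598 genes at 0.05, beside 0.913% of all genes called (0.397% higher and 0.516% lower). At an unadjusted limma p under 0.05 there were 6 Serpin genes, beside 12.4% of all genes. After normalization 4 of the 15 lay above both MMH-D3 arrays in both RLSC lines, beside 20.8% of all genes, and 5 lay below both, beside 21.4%. These 9 of 15 without overlap stand beside 42.2% of all genes. The median difference over the 15, RLSC minus MMH-D3, was -0.24 on the log2 scale, beside 0.03 over all genes tested.

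**Figure D1:**
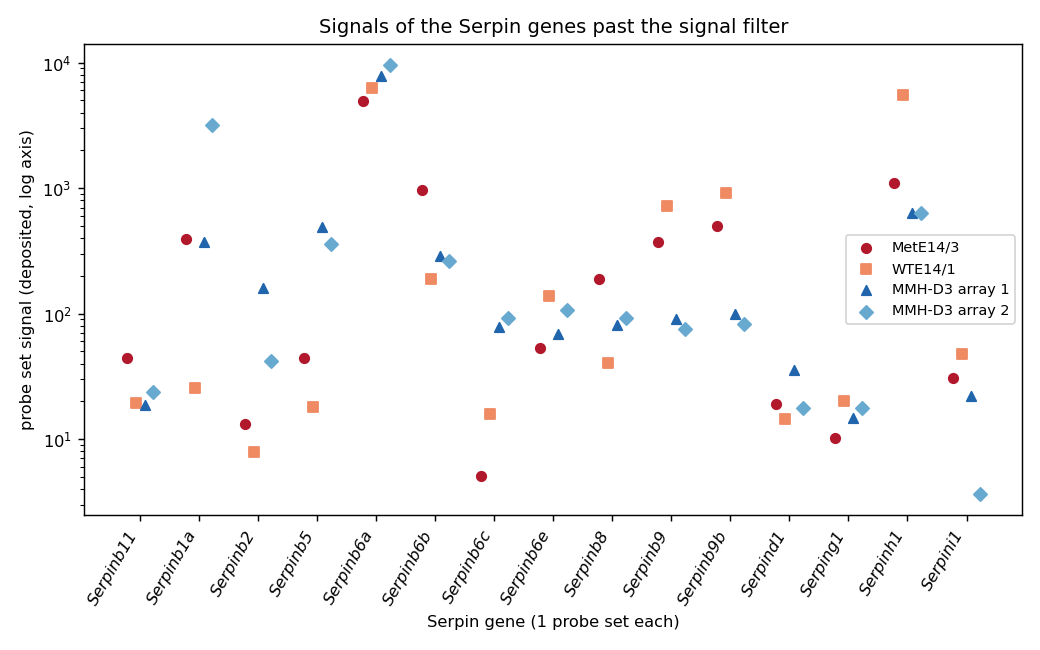
Deposited probe set signal (log axis) of the 15 Serpin genes past the filter, with 1 point per array: MetE14/3, WTE14/1, MMH-D3 array 1 and MMH-D3 array 2. Serpinb9, Serpinb9b, Serpinh1 and Serpini1 have both RLSC points above both MMH-D3 points. Serpinb2, Serpinb5, Serpinb6a and Serpinb6c have both below, and levels are not comparable between genes.

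Serpinb9, a cytosolic inhibitor of granzyme B, read 374 in MetE14/3 and 723 in WTE14/1, versus 90.8 and 74.9 for MMH-D3. Both RLSC lines lay above both MMH-D3 arrays, by a difference of 2.53 (SE 0.53) on the log2 scale, a 5.78-fold ratio that did not pass (limma adjusted p = 0.113). The difference was 1.76 between MetE14/3 and MMH-D3 array 1 and 3.30 between WTE14/1 and MMH-D3 array 2. A second probe set of Serpinb9 read 112 and 113 in the RLSC lines and 12.1 and 17.0 in MMH-D3, which gave a difference of 2.49 (SE 0.45).

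Serpinb9b, an inhibitor of granzyme M in the mouse, read 498 in MetE14/3 and 919 in WTE14/1, versus 99.9 and 82.7 for MMH-D3. Its difference of 2.78 (SE 0.52), a 6.86-fold ratio, did not pass either (limma adjusted p = 0.0853). It was 2.03 and 3.52 within the array pairs of MetE14/3 and WTE14/1. The signals of the paralogs ran in parallel: the ratio of Serpinb9b to Serpinb9 signal was 1.33, 1.27, 1.10 and 1.10 on the arrays of MetE14/3, WTE14/1 and MMH-D3. Probe sequences were not used here, so RNA of one paralog hybridizing to the other's probes cannot be told apart from RNA of both. The other Serpinb9 paralogs with a single symbol, Serpinb9c, Serpinb9d and Serpinb9g, lay below the filter.

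Serpinb6b, which lies next to Serpinb9 in the RefSeq gene table and inhibits granzyme A in the mouse, set the RLSC lines apart. It read 965 in MetE14/3 and 187 in WTE14/1, versus 289 and 263 for MMH-D3, so that MetE14/3 lay above and WTE14/1 below both MMH-D3 arrays. The difference between the groups was 0.53 (SE 0.81, limma adjusted p = 0.877), with 1.63 and -0.56 within the array pairs, and it was -0.69 without MetE14/3.

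Serpinb6a, an intracellular inhibitor of cathepsin G, gave strong signals in every line. They were 4906 in MetE14/3 and 6230 in WTE14/1, versus 7787 and 9501 for MMH-D3. Both RLSC lines lay below both MMH-D3 arrays by a modest difference of -0.57 (SE 0.24, limma adjusted p = 0.404), and the array pairs gave -0.59 and -0.55.

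Serpinb6c, a duplicate of Serpinb6a in the mouse, read 5.10 in MetE14/3 and 15.8 in WTE14/1, versus 77.5 and 91.7 for MMH-D3. Both RLSC lines lay far below both MMH-D3 arrays, with a difference of -2.93 (SE 0.56, limma adjusted p = 0.0901) and -3.37 and -2.48 within the pairs. The suffix of its probe set (_s_at) marks probes shared by several transcripts in the array's naming. A further duplicate, Serpinb6e, read 53.0 in MetE14/3 and 138 in WTE14/1, versus 69.0 and 107 for MMH-D3, with overlapping groups (-0.16, SE 0.57) and a difference of 0.42 without MetE14/3.

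Serpinb5, also called maspin, is a serpin of epithelia that inhibits no protease. It read 43.9 in MetE14/3 and 18.1 in WTE14/1, versus 490 and 359 for MMH-D3. Both RLSC lines lay below both MMH-D3 arrays by -3.83 (SE 0.62), a 14.3-fold ratio and the smallest adjusted p among the 15 (limma adjusted p = 0.0579). It was -3.37 and -4.30 within the array pairs. The gene has 4 probe sets, all past the filter, with differences from -3.83 to -2.98. Tested as separate probe sets, 1 of the 4 passed (limma adjusted p = 0.0499), the only call among 23 Serpin probe sets past the filter, beside 0.733% of all probe sets. That set read 5.20 and 6.62 in the RLSC lines, below the filter level, versus 71.4 and 92.8 for MMH-D3. Its suffix (_x_at) marks probes that may cross-hybridize in the array's naming. Under 13 alternative settings the probe set that stands for Serpinb5 passed in 4, and its limma adjusted p ranged from 0.0353 to 0.319. Epithelial markers were also lower: the summed signal of 5 genes was 15491 to 25895 in RLSC and 42561 to 51677 in MMH-D3, and their part in the Serpinb5 result was not tested.

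**Figure D2:**
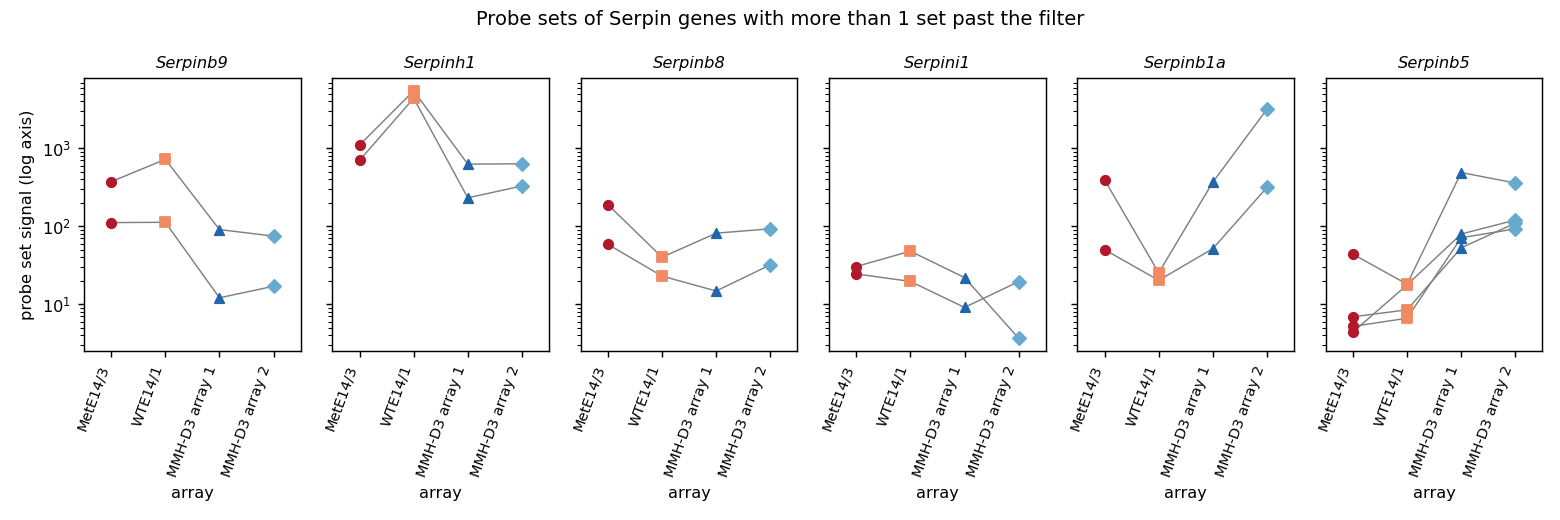
Deposited signal (log axis) of each probe set past the filter for the 6 Serpin genes with more than 1 such set, 1 line per probe set, over MetE14/3, WTE14/1, MMH-D3 array 1 and MMH-D3 array 2. The sets of Serpinb9, Serpinh1, Serpini1, Serpinb1a and Serpinb5 have differences of 1 sign within each gene, and those of Serpinb8 (-0.24 and 0.41) do not.

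Serpinb2, or plasminogen activator inhibitor type 2, blocks the activators encoded by Plau and Plat. It read 13.3 in MetE14/3 and 7.86 in WTE14/1, versus 160 and 42.1 for MMH-D3. The RLSC lines lay below both MMH-D3 arrays (-2.70, SE 0.81, limma adjusted p = 0.241), while the MMH-D3 arrays themselves differed by 2.07 on the log2 scale. Without MMH-D3 array 1 the difference was -1.66.

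Serpinb1a, an inhibitor of neutrophil elastase, cathepsin G and proteinase type 3, varied more than any other tested Serpin gene within each group. It read 394 in MetE14/3 and 25.3 in WTE14/1, versus 369 and 3193 for MMH-D3. MetE14/3 matched MMH-D3 array 1 to within 0.02 on the log2 scale, and the difference between WTE14/1 and MMH-D3 array 2 was -7.11. The difference of -3.54 (SE 1.50, limma adjusted p = 0.419) therefore rests on 1 array pair. With 1 array left out it ranged from -5.58 without MetE14/3 to -1.51 without WTE14/1, and it was -2.01 without MMH-D3 array 2. Its second probe set read 50.2 and 20.3 in the RLSC lines and 51.7 and 316 in MMH-D3, and both sets were lowest in WTE14/1 and highest on MMH-D3 array 2.

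Serpinb8, an inhibitor of the proprotein convertase furin in humans, read 190 in MetE14/3 and 40.1 in WTE14/1, versus 81.7 and 92.8 for MMH-D3. The RLSC lines lay on either side of MMH-D3, with a difference of -0.24 (SE 0.84) that was 0.99 without WTE14/1. Serpinb11, a trypsin inhibitor in the mouse, read 44.0 in MetE14/3 and 19.3 in WTE14/1, versus 18.7 and 23.5 for MMH-D3 (0.18, SE 0.65), and its groups overlapped.

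Serpinh1, known as Hsp47, is the chaperone of procollagen in the endoplasmic reticulum. It read 1102 in MetE14/3 and 5483 in WTE14/1, versus 628 and 635 for MMH-D3. Both RLSC lines lay above MMH-D3, where the arrays read alike, but the RLSC lines themselves differed by -2.32 on the log2 scale (MetE14/3 minus WTE14/1). The difference was 1.95 (SE 0.73), a 3.87-fold ratio that did not pass (limma adjusted p = 0.352), with 0.79 and 3.12 within the pairs. Without WTE14/1 it was 0.79 and without MetE14/3 it was 3.11 (limma adjusted p = 0.942 and 0.0507). A second probe set read 701 and 4405 in the RLSC lines and 232 and 329 in MMH-D3, which gave a difference of 2.60 (SE 0.85). Of the mesenchymal markers, Pdgfrb was highest in MetE14/3 (248, versus 65.8 in WTE14/1), and the others, Acta2 among them, in WTE14/1. The part of mesenchymal markers in the Serpinh1 values was not tested.

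**Figure D3:**
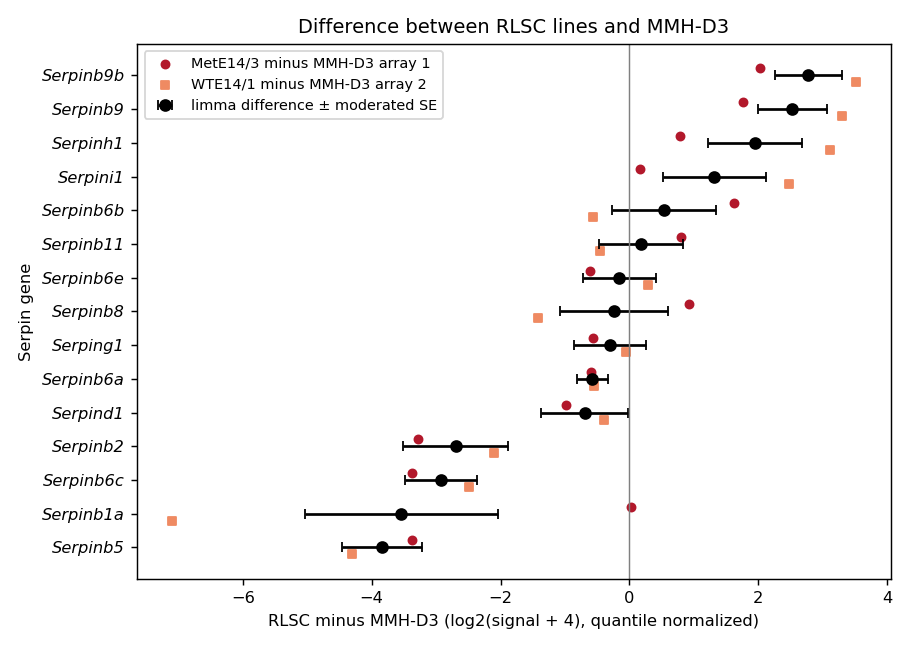
Difference RLSC minus MMH-D3 on the log2(signal + 4) scale for the 15 Serpin genes; black points are limma differences with their moderated SE, circles are MetE14/3 minus MMH-D3 array 1 and squares WTE14/1 minus MMH-D3 array 2. The values run from -3.83 for Serpinb5 to 2.78 for Serpinb9b, and the squares of Serpinb1a and Serpinh1 lie at -7.11 and 3.12.

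Low signals limited the remaining 3 tested genes. Serpini1, or neuroserpin, an inhibitor of the activator encoded by Plat, read 30.5 in MetE14/3 and 48.0 in WTE14/1, versus 22.0 and 3.65 for MMH-D3 (1.32, SE 0.80, limma adjusted p = 0.613), and the difference was 0.26 without MMH-D3 array 2. Its second probe set past the filter gave 0.39 (SE 0.55). The neural marker Tubb3 read 86.3 and 380 in the RLSC lines, versus 20.1 and 16.7 for MMH-D3. The other neural markers, Gfap and Olig2, overlapped between the groups. The part of neural markers in the Serpini1 values was not tested. Serpind1, the thrombin inhibitor heparin cofactor II, read 19.2 and 14.6 in MetE14/3 and WTE14/1, versus 35.4 and 17.7 for MMH-D3 (-0.69, SE 0.67). Serping1, the inhibitor of complement component C1, read 10.2 in MetE14/3 and 20.2 in WTE14/1, versus 14.6 and 17.6 for MMH-D3 (-0.31, SE 0.56). The deposited Serping1 signals overlapped between the groups, although after quantile normalization both RLSC lines lay below MMH-D3.

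The other 24 Serpin genes lay below the filter, and none of their probe sets reached a signal of 100 on any array. All 13 clade A genes were among them, with signals from 0.20 to 54.6. The highest was Serpina1b, which encodes an α1-antitrypsin, an elastase inhibitor that adult hepatocytes secrete in large amounts. Its probe sets read 1.00 and 1.10 in MetE14/3, 2.19 and 2.20 in WTE14/1, 3.80 and 2.10 on MMH-D3 array 1, and 54.6 and 42.3 on MMH-D3 array 2. In these sets the signal was thus above the filter level on MMH-D3 array 2 alone. Both carry the suffix _x_at, so RNA of related genes may add to their signal. A set shared by Serpina1b, Serpina1c and Serpina1e read 6.46 on that array. Of the hepatocyte markers, Alb, Ttr, Apoa1, Apob, Hnf4a and Rbp4 were also higher on MMH-D3 array 2 than on array 1. Afp, Cps1 and Tat were higher on array 1, and a link of these markers to Serpina1b was not tested. Another set with a single symbol, for the α1-antitrypsin gene Serpina1c, read 1.50 in MetE14/3 and 19.7 in WTE14/1, versus 0.60 and 13.6 for MMH-D3.

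Serpina7, which carries thyroid hormone in plasma, read 0.30 in MetE14/3 and 6.19 in WTE14/1, versus 0.20 and 26.0 for MMH-D3. Serpina3n, a secreted inhibitor made by liver in the acute phase, read at most 2.67 on any array. Antithrombin (Serpinc1) read 16.9 in MetE14/3 and 24.0 in WTE14/1, versus 7.40 and 2.28 for MMH-D3. The clade F genes Serpinf1, encoding an inhibitor of vessel growth, and Serpinf2, the inhibitor of plasmin, had signals from 1.40 to 24.3. The 7 clade B genes below the filter had signals from 0.30 to 33.4, the highest being Serpinb7 in MetE14/3. No detection calls were used here, so signals at this level do not say whether an RNA was present.

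The second comparison, between the RLSC lines, is a description, since each has 1 array. Serpinb1a, Serpinb6b and Serpinb8 were at least 4-fold higher in MetE14/3 than in WTE14/1, and Serpinh1 at least 4-fold higher in WTE14/1. These 4 of 15 genes stand beside 5.13% of all genes tested that were at least 4-fold apart (2.80% higher in MetE14/3 and 2.33% in WTE14/1). The MetE14/3 to WTE14/1 ratios on the log2(signal + 4) scale were 16.8 for Serpinb1a, 5.54 for Serpinb8, 5.46 for Serpinb6b and 0.20 for Serpinh1. The 2 MMH-D3 arrays were at least 4-fold apart for 3 of the 15, Serpinb1a, Serpinb2 and Serpini1, beside 5.96% of all genes. For Serpinh1, Serpinb8 and Serpinb6b the MMH-D3 arrays differed by 0.01, 0.12 and 0.26 on the log2 scale. The RLSC lines also belong to different array pairs, and their origin and this pairing cannot be told apart.

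**Figure D4:**
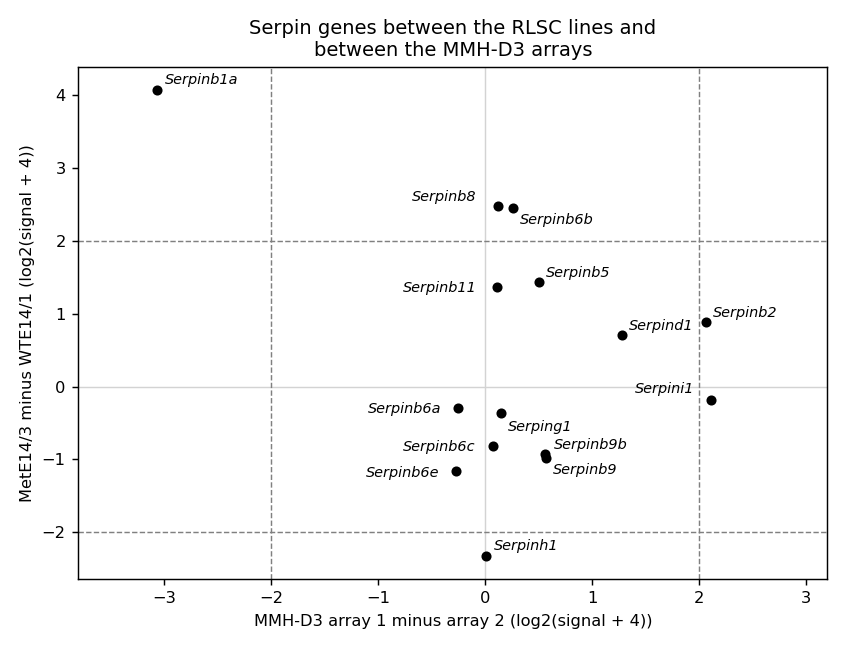
Each of the 15 Serpin genes by its difference between the MMH-D3 arrays (x axis, array 1 minus array 2) and between the RLSC lines (y axis, MetE14/3 minus WTE14/1), on the log2(signal + 4) scale; dashed lines mark 4-fold. Serpinb8, Serpinb6b and Serpinh1 lie beyond 4-fold on the y axis alone, and Serpinb1a on both axes at 4.07 and -3.06.

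Genes of the pathways in which serpins act were read from 4 lists. Of 25 tested procollagen chains and folding partners of Serpinh1, none passed in either direction, although 15 lay above both MMH-D3 arrays in both RLSC lines, beside 20.8% of all genes, and 2 below, beside 21.4%. Their median difference was 0.89, and 0.62 and 0.65 within the array pairs, beside 0.03 over all genes. The members with the highest mean signal, the chaperone Hspa5 and the prolyl hydroxylase subunit P4hb, differed by -0.27 (SE 0.25) and -0.37 (SE 0.24). The type VI collagen chain Col6a1 read 314 and 198 in the RLSC lines, versus 13.7 and 21.6 for MMH-D3 (3.42, SE 0.52, limma adjusted p = 0.0519), and was named after its value was seen. It passed in 5 of 13 alternatives, including the array pair as a replicate block (limma adjusted p = 0.0489). Of the mesenchymal markers, Acta2, Tagln and Pdgfrb were also higher in both RLSC lines than on both MMH-D3 arrays. The signals of Vim, Col1a1, Col3a1 and Thy1 overlapped between the groups. The part of such markers in these values was not tested.

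Plasminogen activation is the system that Serpinb2 and Serpini1 restrain. Of 9 tested genes on its list, none passed and 6 lay below both MMH-D3 arrays, beside 21.4% of all genes. These 6 include Enpep, an aminopeptidase outside that system. It read 4.20 and 1.35 in the RLSC lines, versus 10.3 and 149 for MMH-D3. The list median was -0.35, beside 0.03 over all genes. Anxa2, a cell-surface plasminogen receptor, differed by -0.30 (SE 0.19), and its partner S100a10 by -0.35 (SE 0.24). Plat, the tissue-type activator, read 795 and 1147 in the RLSC lines, versus 894 and 614 for MMH-D3, and Plau, the urokinase, read 79.6 and 12.1, versus 25.2 and 2.60 for MMH-D3. Both sets of groups overlapped, and these 2 genes, protease targets of Serpinb2, were named after their values were seen.

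Of 21 tested other target proteases and receptors, 1 passed as lower, beside 0.516% of all genes, and none as higher, beside 0.397%. Thrombomodulin (Thbd), the thrombin receptor that starts protein C activation, fell to 8.70 and 3.76 in the RLSC lines, versus 242 and 236 for MMH-D3, which gave a difference of -4.69 (SE 0.56, limma adjusted p = 0.0338). It did not pass without a filter (0.0657), without WTE14/1 or without either MMH-D3 array, and its adjusted p ranged from 0.0256 to 0.246 over the alternatives. The list median was -0.30, but -0.01 without WTE14/1 and 0.05 with the median of probe sets. Elane, the leukocyte elastase that Serpinb1a inhibits, read at most 31.4 on any array, and the granzyme M gene Gzmm at most 18.5. Elane and Gzmm were named after their values were seen. Gzma and Gzmb lay below the filter.

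Of 19 tested protease inhibitors of other families, 1 passed as higher, beside 0.397% of all genes, and 2 as lower, beside 0.516%. The list median was -0.13, and it ranged from -0.39 to 0.03 with 1 array left out. The metalloprotease inhibitor Timp3 rose to 1429 and 1475 in the RLSC lines, versus 11 and 10.4 for MMH-D3 (6.57, SE 0.45, limma adjusted p = 0.0150). Ambp, the precursor of the plasma inhibitor bikunin, fell to 13.8 and 1.65, versus 236 and 370 for MMH-D3 (-4.93, SE 0.73, limma adjusted p = 0.0488). Wfdc2, a secreted whey acidic protein, fell to 26.0 and 12.4, versus 5200 and 3595 for MMH-D3 (-7.66, SE 0.55, limma adjusted p = 0.0150). None of these 3 passed without MMH-D3 array 1 or without array 2, and Ambp did not pass without WTE14/1 either. Ambp also missed the threshold with log2(signal + 1) (limma adjusted p = 0.0754), without a filter (0.0865), with a 60th percentile filter (0.0552) and without the intensity trend (0.0608). Adjusted p over the alternatives ranged from 0.00593 to 0.203 for Timp3, 0.0233 to 0.330 for Ambp and 0.00567 to 0.214 for Wfdc2. A difference between these inhibitors and the Serpin genes was not tested.

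**Figure D5:**
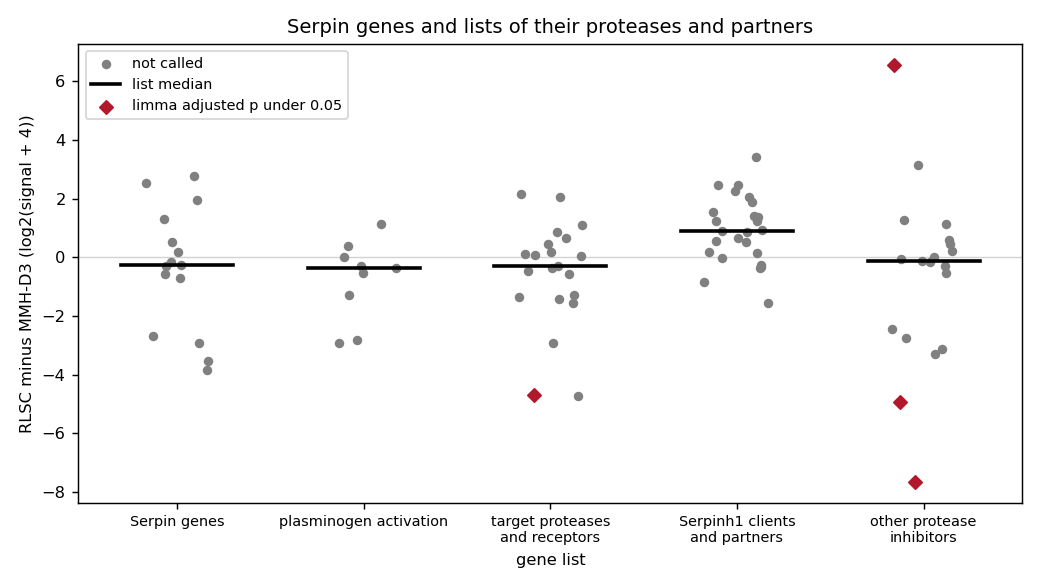
Difference RLSC minus MMH-D3 on the log2(signal + 4) scale for each tested gene of the Serpin family and of 4 lists, with list medians as black lines and genes past limma's adjusted p of 0.05 as red diamonds. The Serpin genes, with a median of -0.24, hold no diamond, the target proteases hold 1 and the other protease inhibitors 3.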

How the data were processed

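Total RNA (5 μg) per sample was labelled and 15 μg of fragmented cRNA hybridized per array, per the labels' protocols. The authors deposited 1 linear intensity per probe set, and the submitters' processing notes name GCOS. Its version and algorithm were not given in the sources used here. Trimmed by the lowest and highest 2%, the mean signal was 200.001 on every array, so arrays appear scaled to 1 target. MetE14/3 and MMH-D3 array 1 were deposited with at most 1 decimal.

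Of 45101 probe sets, 64 were controls and left out; 34958 had 1 symbol, 932 several and 9160 were unnamed here. Of the first, 34754 matched the RefSeq table (GRCm38.p6, for names only) by Entrez identifier and 0 symbols changed. The pseudocount of 4 understates folds of low genes, and probe sets under the 40th percentile (signal about 11.7) were not tested. Median log2 signals differed by 0.614, over a limit of 0.25, so quantile normalization was applied. The two-sided test of RLSC over MMH-D3 used lmFit and eBayes (trend over intensity) of limma 3.58.1 in R 4.3.3, with 2 residual and 4.24 prior degrees of freedom. The fit was tested on simulated data in 2 ways. With variances drawn from limma's own fitted prior and log2 changes of at least 4 it recovered most changed genes. Such changes are larger than the difference between the groups of any tested Serpin gene. A simulation tried first, with observed gene spreads shuffled across intensities and log2 changes of 2 and 4, made no call in any run. What the test can recover thus depends on the spread and size simulated. Folds are on the log2(signal + 4) scale and signals are as deposited. The number of arrays limits the precision. Named genes are all Serpin genes past the filter, members below it that reach a signal of 100, and list members that passed or else the 2 with the highest mean; others were chosen after their values were seen. The interferon regulatory factor motif was shortened after matches to a longer form had been seen. The members and lists were chosen with earlier results of these data known. The RLSC titles carry no replicate number; the array pairs come from the poly-A controls. Alignments used Biopython 1.88.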

Additional observations from a re-analysis of the deposited data

How the results depend on the processing

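Under 13 alternatives, no Serpin gene passed in 8. The probe set that stands for Serpinb5 passed in 4: with log2(signal + 16) (adjusted p = 0.0485), without quantile normalization (0.0425), with the array pair as a replicate block (0.0353) and without MetE14/3 (0.0361). A test of every probe set called another Serpinb5 set. Leaving out 1 array, 0 to 1 Serpin genes were called. Over all genes, 115 were called, 153 without quantile normalization, 164 with the array pair as a replicate block, 9 without a filter, 198 with every probe set tested, and 0 to 198 when 1 array was left out. No gene passed without either MMH-D3 array, where 2228 and 1056 had an unadjusted p under 0.05 without array 1 and array 2. The number of Serpin genes at least 4-fold apart between the RLSC lines was 4, and 5 without a filter. The Serpin median was 0.18 without a filter. Signs turned for Serpinb8 without quantile normalization (0.0223) and with the median of probe sets (0.0825), and with the median of probe sets also for Anxa2 (0.0386) and Plat (-0.28). With 1 array left out, differences that changed sign ran from -0.50 to 0.86 for Serpinb11, -0.69 to 1.76 for Serpinb6b, -0.74 to 0.42 for Serpinb6e, -1.48 to 0.99 for Serpinb8, -0.18 to 2.43 for Plau and -0.88 to 0.28 for Gzmm. The cause was not tested.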

Other observations

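Other probe sets of the Serpin family were outside the rule because they name several genes or a pseudogene. The 2 sets shared by α1-antitrypsin paralogs gave low signals in every line. The set for Serpina1b, Serpina1c and Serpina1e read 2.60 in MetE14/3 and 1.29 in WTE14/1, versus 5.80 and 6.46 for MMH-D3. The set for Serpina1a and Serpina1d read 0.20 and 1.05 in the RLSC lines, versus 0.90 and 0.26 for MMH-D3. A set shared by 4 Serpinb9 paralogs (Serpinb9e, Serpinb9f, Serpinb9g and Serpinb9h) read 15.0 and 14.9 in the RLSC lines, versus 19.8 and 9.22 for MMH-D3, with overlapping groups. Of the 3 sets for the pseudogene Serpina4-ps1, the one with the highest mean read 20.7 in MetE14/3 and 20.3 in WTE14/1, versus 12.8 and 9.31 for MMH-D3.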
